A study of Caenorhabditis elegans with 12 samples.

Results

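Small heat shock proteins share an alpha-crystallin domain, assemble into oligomers and hold unfolding proteins in a soluble state without using ATP. In Caenorhabditis elegans the hsp-16 genes are the strongly heat-inducible branch of this family. The other members differ in size and in where and when they are made, and several are known as developmental or tissue proteins. The members described here are 8 of the family genes outside hsp-16, namely hsp-12.1, hsp-12.2, hsp-12.3, hsp-12.6, hsp-17, hsp-25, hsp-43 and sip-1. They were chosen by name, as every probe set that the array platform's annotation assigns to 1 of these genes, which gave 9 of the 22625 probe sets on the array. The gene sip-1 had 2 probe sets (192671_at and 192672_s_at) and each other gene had 1. Those of hsp-25 (190900_s_at) and hsp-43 (190097_s_at) also carry the s_at suffix, which marks probes shared by several transcripts.

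The values are MAS5 signals, a background-subtracted brightness on a linear scale, from 12 single-colour arrays hybridised with biotin-labelled cRNA from total RNA of worm lysates. Both strains carried the reporter egl-15::gfp together with pRF4, a transformation marker. The HLH strain had in addition the constructs named pHS::hlh-8 and pHS::hlh-2, which were absent from the marker strain. According to the design text, some worms of each genotype were heat shocked and others not, with biological replicates numbering 3. Array titles carry a set (1, 2 or 3) followed by a code, where codes 1 and 2 were HLH strain arrays and codes 3 and 4 marker strain arrays, with 3 arrays per code. No source read here states the developmental stage, the worm number, or the temperature and length of the heat shock, and no label says which codes were heated. All results are therefore stated by code, and the question asked of each member was whether its signal differed between the codes of a strain, between strains or between sets. One array, titled 2_2 (2), repeats the set number of another code 2 array, and its set was treated as uncertain.

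All arrays had been scaled alike by the authors, with medians over all probe sets of 180.3 to 208 and a 2% trimmed mean of 500.1. Of the 9 member probe sets, 8 reached a signal above the array median on 3 or more of the 12 arrays and were tested among 12328 probe sets. The exception was hsp-12.6, which was below the median on all 12 arrays. Over the whole array 40.3% of 12265 tested probe sets differed between the 3 sets at an adjusted p of 0.05 in limma. The set 2 arrays stood apart, with 33.3% called between sets 2 and 1 and 37% between sets 3 and 2. Between sets 3 and 1 the share was 1.43%. The heat-inducible gene hsp-16.41 separated the codes within each strain, with mean signals of 83.9 at code 1, 4757 at code 2, 66.5 at code 3 and 4718 at code 4 (n = 3 each). The arrays measure RNA of whole lysates, so fewer cells that make a transcript and less transcript per cell cannot be told apart.

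Among the members, hsp-17 was the single one whose signal separated the codes in both strains. Its signal at code 1 was 1180.5 in set 1, 1545 in set 2 and 1229.2 in set 3. At code 2 it was 1919.3 in set 1, 2704.4 in set 2 and 2642.8 on the array titled 2_2 (2). In the marker strain it was 834.9, 1157.2 and 1203.1 at code 3 in sets 1, 2 and 3. At code 4 it was 1924, 2076.5 and 2020.7 in the same sets. All 6 arrays of codes 2 and 4 were thus brighter than all 6 arrays of codes 1 and 3, while codes 1 and 3 overlapped each other, as did codes 2 and 4.

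**Figure D1:**
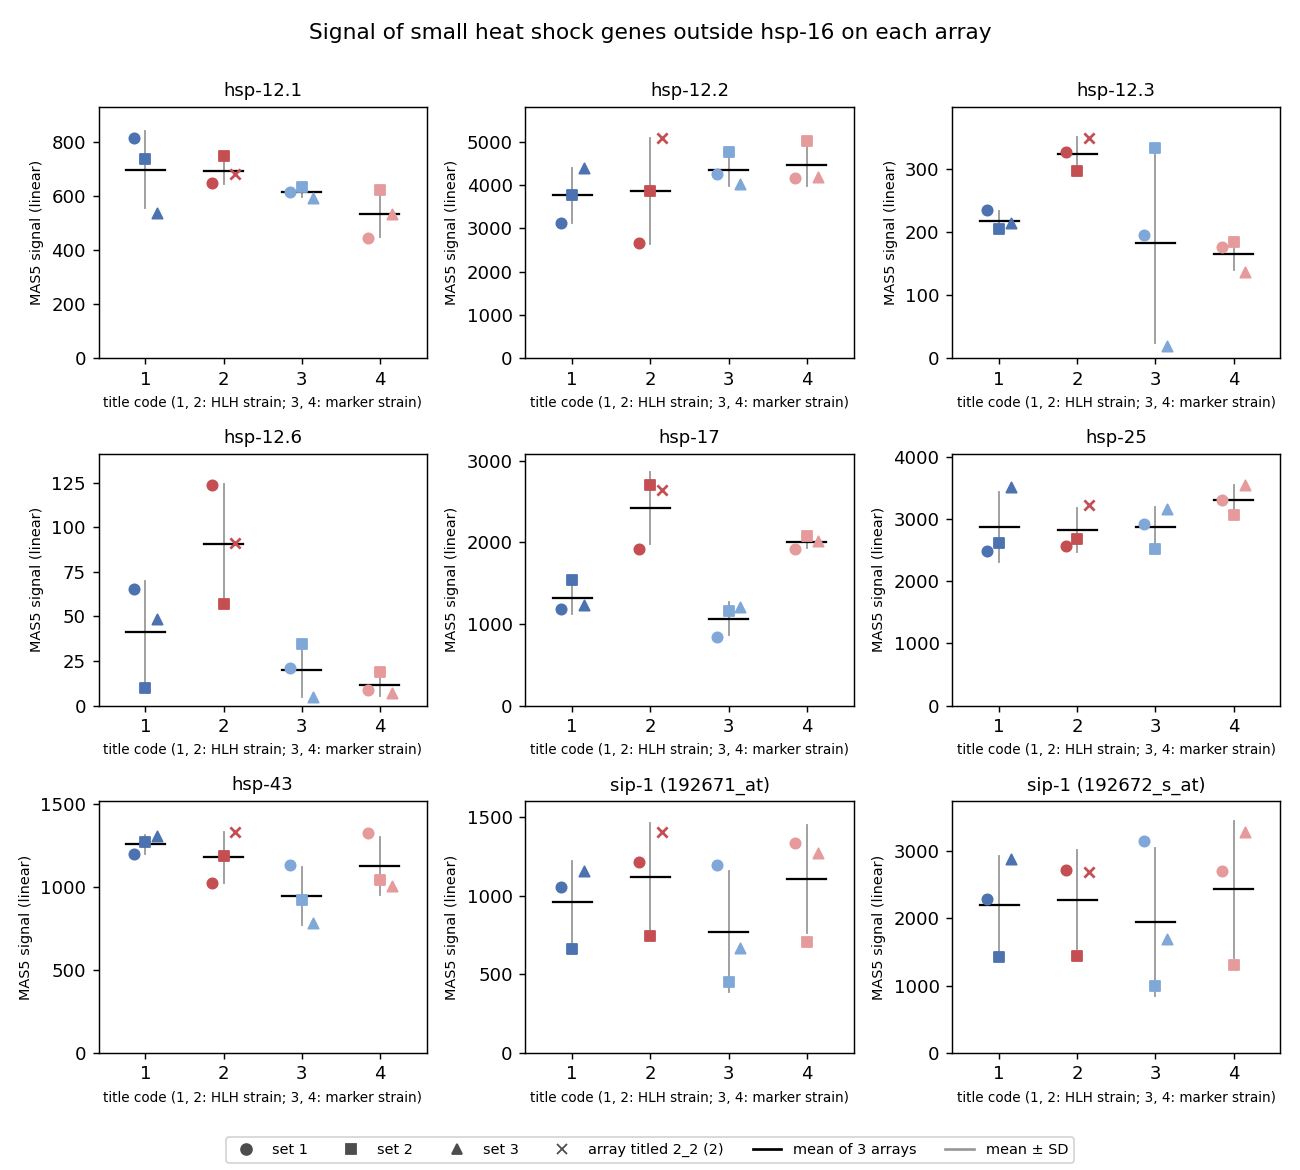
MAS5 signal (linear, y axis) of each member probe set on the 12 arrays, by title code (x axis), with 1 panel a probe set. Symbols give the set number, a cross is the array titled 2_2 (2), black bars are means of 3 arrays and grey lines span the mean ± SD. Codes 2 and 4 lie above codes 1 and 3 for hsp-17, and the set 2 squares lie lowest at every code for both probe sets of sip-1.

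The mean of hsp-17 was 1318 ± 198 at code 1 and 2422 ± 437 at code 2, and 1065 ± 201 at code 3 and 2007 ± 77.2 at code 4 (SD, n = 3). The ratio of code 2 to code 1 was 1.83 with a 95% interval of 1.37 to 2.44, and that of code 4 to code 3 was 1.91 with an interval of 1.43 to 2.54. On the log2 scale the differences were 0.87 ± 0.19 and 0.93 ± 0.19 (SE), and neither passed over all tested probe sets in limma, with adjusted p of 0.49 and 0.35. An F test of both code differences together, which needs no matching of codes between the strains, ranked hsp-17 at place 11 of 12328 with an adjusted p of 0.074 in limma. Few probe sets passed at all in these tests, 0.0406% between codes 1 and 2, 0.0568% between codes 3 and 4 and 0.0811% in the joint test.

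With the set number as a block, which removes differences shared by the arrays of a set, hsp-17 passed in the marker strain. The blocked log2 difference was 0.93 ± 0.13 (SE) between codes 4 and 3, with an adjusted p of 0.0091, and the blocked joint test gave an adjusted p of 0.0037. Between codes 2 and 1 the blocked difference was 0.82 ± 0.15 (SE) with an adjusted p of 0.10. The blocked background was 0.155%, 0.179% and 0.0489% of 12265 probe sets for code 4 against 3, the joint test and code 2 against 1. The array titled 2_2 (2) was left out of the blocked fit. Within sets, the code 2 to code 1 ratio of hsp-17 was 1.63 in set 1 and 1.75 in set 2, and the code 4 to code 3 ratio was 2.30, 1.79 and 1.68 in sets 1, 2 and 3. All 5 ratios were above 1.

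No difference between the strains in the size of the hsp-17 code difference was detected when code 1 was matched with code 3. Since codes cannot be matched between strains from the labels, the interaction was computed under both matchings and the larger p was kept. For hsp-17 this was the matching of code 1 with code 3, with a difference of -0.06 ± 0.27 (SE) on the log2 scale, with a 95% interval of -0.65 to 0.52 and an adjusted p of 1. Under the matching of code 1 with code 4 it was 1.80 ± 0.27 (SE), adjusted p = 0.018 in limma. With the set as a block that value was 1.75 ± 0.20 (SE), adjusted p = 0.0011 in limma. Under this second matching the interaction is the sum of the 2 code differences. It thus restates that both have the same sign and is no evidence apart from them. Because the larger p is kept, the test cannot call a probe set whose code differences are alike in size in both strains. None of the 8 tested member probe sets passed this test or had an unadjusted p under 0.05 in limma, against a background of 0% called and 0.0892% with an unadjusted p under 0.05. Across strains over both codes hsp-17 differed by 0.29 ± 0.14 (SE) on the log2 scale, HLH minus marker, with an adjusted p of 0.32.

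In all, none of the 8 tested member probe sets passed in either code comparison or in the joint test in limma without the block, and hsp-17 was the single one with an unadjusted p under 0.05 in each. That unadjusted level was reached by 2.3%, 2.17% and 2.19% of all tested probe sets. Arrays of the 2 codes did not overlap for 2 of 8 member probe sets between codes 1 and 2, hsp-17 and hsp-12.3, both higher at code 2, where 3.65% of all tested probe sets were separated in that direction. Between codes 3 and 4 it was 1 of 8, hsp-17, higher at code 4, where the background was 2.95%. In both comparisons at once, with codes 2 and 4 higher, the background was 0.446%. The median absolute log2 difference of the 8 probe sets was 0.08 between codes 1 and 2 and 0.31 between codes 3 and 4, beside 0.12 for all tested probe sets in each comparison.

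**Figure D2:**
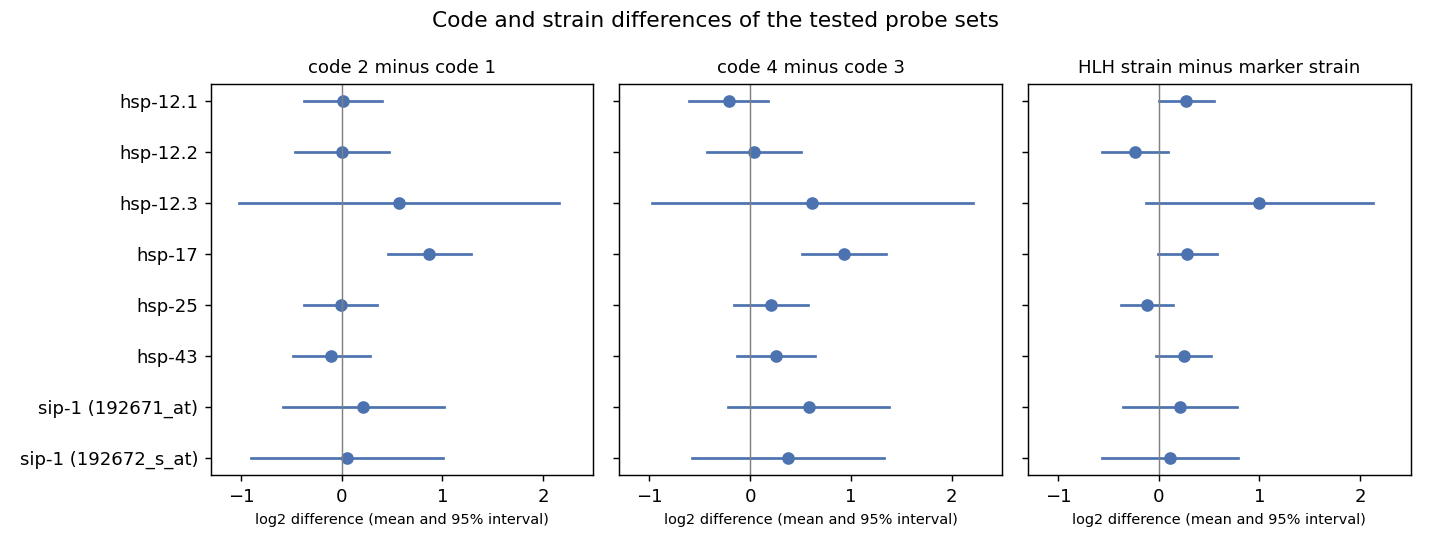
Log2 differences (x axis) of the 8 tested member probe sets between codes 2 and 1, codes 4 and 3, and the HLH and marker strains, from the limma fit without the block. Dots are estimates and lines 95% intervals. The intervals of hsp-17 lie above 0 in both code comparisons, all others cross 0, and those of hsp-12.3 are the widest.

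The muscle-associated gene hsp-25 had the narrowest range of signal among the members. Its protein is known from dense bodies and M-lines of body wall muscle, structures that anchor the contractile filaments. Its signal ran from 2476.3 to 3510.8 at code 1 and from 2569.5 to 3224.8 at code 2. It ran from 2509.9 to 3164.8 at code 3 and from 3061.7 to 3544.9 at code 4. All 4 groups overlapped, and the highest array was 1.43 times the lowest, a range that only 7.18% of tested probe sets undercut. The ratio was 0.99 between codes 2 and 1 with a 95% interval of 0.77 to 1.28, and 1.16 between codes 4 and 3 with an interval of 0.90 to 1.49. A change the size of that in hsp-17 lay outside both intervals, whereas smaller changes within them could not be told from none.

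For hsp-43, a gene for a longer protein of the family, the 2 codes also overlapped in each strain. The signal was 1195.1, 1271.7 and 1305.1 at code 1 in sets 1, 2 and 3, and 1021.8, 1183.4 and 1330 at code 2, the last on the array titled 2_2 (2). It was 1131.2, 922 and 784.6 at code 3, and 1325.8, 1042.6 and 1003.3 at code 4, in sets 1, 2 and 3. Code 4 was above code 3 in each set, by ratios of 1.17, 1.13 and 1.28, while code 2 was below code 1 in sets 1 and 2, by ratios of 0.855 and 0.931. The log2 differences were -0.10 ± 0.18 and 0.25 ± 0.18 (SE), with adjusted p of 1 for each in limma. The difference between these 2 values, which matches code 1 with code 3, was -0.35 ± 0.25 (SE), and -0.50 ± 0.23 (SE) with the set as a block. Under the other matching, of code 1 with code 4, the interaction was 0.15 ± 0.25 (SE), and 0.00 ± 0.23 (SE) with the block, and all 4 had an adjusted p of 1 in limma. The marker strain values at both codes were highest in set 1, and in a fit of that strain alone the set test of hsp-43 had an adjusted p of 0.0496, against 0.44 over both strains in limma. In that fit of the marker strain alone 4614 of 11502 tested probe sets passed, so such a call was not unusual.

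The hsp-12 proteins are known for very short ends around the alpha-crystallin domain, and hsp-12.6 protein showed little chaperone activity in the test tube. The genes hsp-12.1 and hsp-12.2 were above the array median on all 12 arrays. The signal of hsp-12.1 was 815.4, 738.8 and 539 at code 1 and 616.4, 635.3 and 594.9 at code 3, in sets 1, 2 and 3. It was 650.5 in set 1, 748.4 in set 2 and 683.6 on the array titled 2_2 (2) at code 2, and 447.1, 622.9 and 535.3 at code 4. The ratio of code 2 to code 1 was 1.01 (95% interval 0.77 to 1.32) and that of code 4 to code 3 was 0.86 (95% interval 0.66 to 1.13). Over both codes hsp-12.1 was 0.27 ± 0.13 (SE) higher on the log2 scale in the HLH strain, which did not pass in limma, adjusted p = 0.31.

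The gene hsp-12.2 had code ratios near 1 in both strains, 1.00 between codes 2 and 1 (95% interval 0.73 to 1.38) and 1.03 between codes 4 and 3 (95% interval 0.74 to 1.41). Its HLH strain signals in set 1 were 3124.2 (code 1) and 2655.5 (code 2), against 4250.3 (code 3) and 4165.8 (code 4) in the marker strain. In set 2 the HLH strain read 3769.3 (code 1) and 3850.9 (code 2), against 4752.4 (code 3) and 5025.5 (code 4). In set 3 the signal was 4387.7 at code 1, 4027.5 at code 3 and 4190.5 at code 4, and the array titled 2_2 (2) read 5085.7. The HLH arrays were thus lower in sets 1 and 2 and not in set 3. The strain difference, HLH minus marker, was -0.23 ± 0.15 (SE) on the log2 scale with an adjusted p of 0.50. With the set as a block and without the array titled 2_2 (2) it was -0.34 ± 0.10 (SE) with an adjusted p of 0.032 in limma. The share of all probe sets called between strains was 2.72% without the block and 14.2% with it, and of 8 member probe sets 0 were called without it and 1 with it. Without the block none of the 8 had an unadjusted p under 0.05 either, beside 16.1% of all tested probe sets.

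The genes hsp-12.3 (F38E11.1) and hsp-12.6 (F38E11.2) are next to each other among protein-coding genes in assembly WBcel235, and both had low signals. For hsp-12.3 the signal was 235.1, 204.1 and 214.6 at code 1, and 326.7, 295.9 and 348.5 at code 2, the last on the array titled 2_2 (2). These codes did not overlap. In the marker strain it was 194.7, 333 and 18.9 at code 3 in sets 1, 2 and 3, and 176.4, 184.2 and 135.9 at code 4. The value of 18.9, in set 3 of code 3, was the lowest of the 12 and close to the floor of 16.7 to which lower signals were raised before log2.

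The log2 differences of hsp-12.3 were 0.57 ± 0.74 (SE) between codes 2 and 1 and 0.62 ± 0.74 (SE) between codes 4 and 3, with adjusted p of 1 for each in limma. Without marker code 3 replicate 3, which holds the value of 18.9, the second became -0.63, adjusted p = 1 in limma, so its direction rested on that array. The ratio of code 4 to code 3 was then 0.64, with a 95% interval of 0.44 to 0.95. The difference between codes 2 and 1 stayed at 0.57, but its SE fell to 0.23 and the 95% interval of the ratio, 0.49 to 4.48 with that array, was 1.05 to 2.10, adjusted p = 1 in limma. The strain difference, HLH minus marker, was 1.00 ± 0.52 (SE) with an adjusted p of 0.38, and 0.38 without that array, adjusted p = 0.32. The HLH arrays lay between 204.1 and 348.5, and of the marker arrays only the one at code 3 in set 2 lay inside that range. Ratios of the size seen for hsp-17 between codes 2 and 1 lie within the interval for hsp-12.3 with and without the array.

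The signal of hsp-12.6, a gene known to be raised by the transcription factor DAF-16 when insulin signalling is low, was 65.6, 10.1 and 48.7 at code 1 in sets 1, 2 and 3. At code 2 it was 123.7 in set 1, 57.1 in set 2 and 91.3 on the array titled 2_2 (2). It was 20.8, 34.5 and 4.6 at code 3, and 8.8, 18.6 and 7 at code 4. All 6 marker arrays and 1 HLH array were at or below 34.5, and 4 of the 12 values were under the floor. When probe sets that failed the filter on dim signals were kept in the fit, the strain difference, HLH minus marker, was 1.52 ± 0.35 (SE) on the log2 scale with an adjusted p of 0.093, and the code differences of hsp-12.6 were 1.20 ± 0.50 and -0.40 ± 0.50 (SE) with adjusted p of 1 in limma. These sizes depend on the floor, to which 1 HLH value and 3 marker values were raised.

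For sip-1, whose protein is a chaperone of oocytes and embryos and which is also a known DAF-16 and HSF-1 target, the arrays differed by set, and no code difference passed. With probe set 192671_at the signal in set 1 was 1056.3, 1216.5, 1197.7 and 1333.9 at codes 1 to 4. In set 2 it was 662.9, 743.3, 452.2 and 708 at codes 1 to 4. In set 3 it was 1158.8, 664.6 and 1273.7 at codes 1, 3 and 4. The set 2 arrays were below all set 1 arrays, and in set 3 the code 3 array was alone at a level inside the set 2 range.

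The second probe set of sip-1, 192672_s_at, whose suffix marks probes shared by several transcripts, showed the same order. Its signal was 2290.6, 2721.3, 3148 and 2702.2 in set 1, and 1421.9, 1437.4, 991.5 and 1305.4 in set 2, at codes 1 to 4. In set 3 it was 2879.1, 1699.3 and 3286.1 at codes 1, 3 and 4. All 4 set 2 arrays were below the other 7, as they were for 6.92% of all tested probe sets, with the code 3 array of set 3 the lowest of those. The array titled 2_2 (2) read 1406.1 and 2685 on the 2 probe sets, above each of the 4 arrays of set 2.

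**Figure D3:**
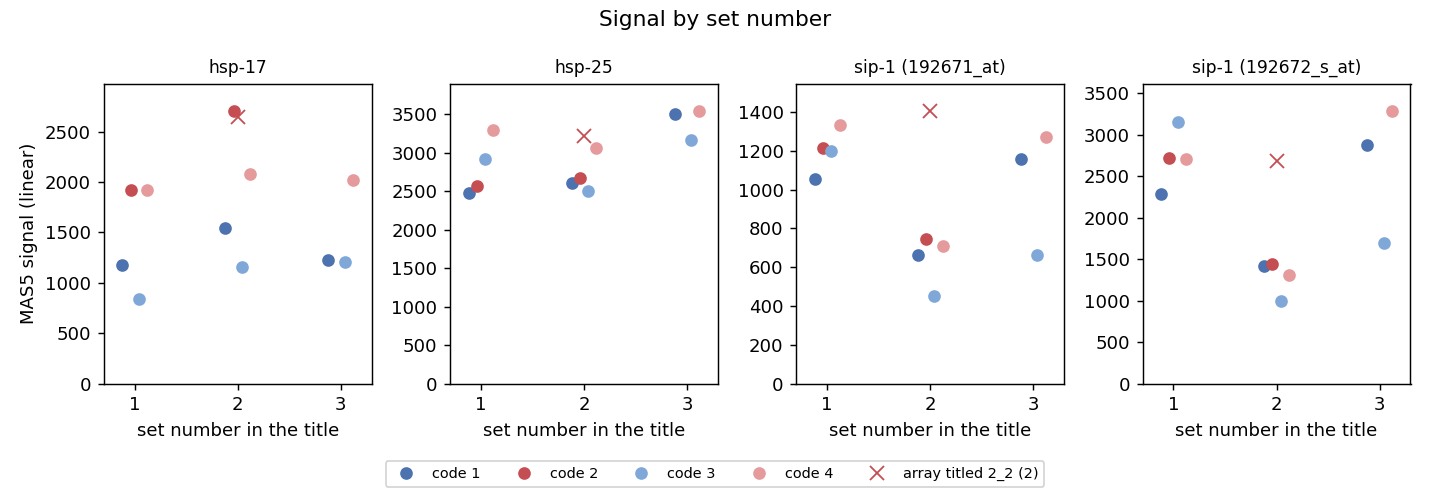
MAS5 signal (linear, y axis) of hsp-17, hsp-25 and the 2 probe sets of sip-1 by the set number in the array title (x axis). Colours give the code and the cross is the array titled 2_2 (2). The set 2 arrays are lowest for sip-1 within each code. For hsp-17 codes 2 and 4 lie above codes 1 and 3 in sets 1 and 2. In set 3, which has no code 2 array, code 4 lies above codes 1 and 3.

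Set 2 was lower than set 1 in sip-1 by -0.93 ± 0.15 (SE) on the log2 scale with 192671_at and by -1.08 ± 0.17 (SE) with 192672_s_at, adjusted p = 0.00092 and 0.00087 in limma. These are ratios of 0.53 and 0.47. Set 3 was higher than set 2 by 0.70 ± 0.17 and 1.02 ± 0.19 (SE), adjusted p = 0.0064 and 0.0017, and differed from set 1 by -0.23 ± 0.17 and -0.07 ± 0.19 (SE), adjusted p = 0.50 and 0.89. The F test over the 3 sets had an adjusted p of 0.0014 for 192671_at and 0.00089 for 192672_s_at. It passed for both probe sets in the HLH strain alone, adjusted p = 0.020 and 0.0053, and in the marker strain alone, 0.0025 and 0.0021. In the marker strain alone 4614 of 11502 tested probe sets passed the set test. Between codes neither probe set of sip-1 passed, with log2 differences of 0.22 ± 0.37 and 0.05 ± 0.44 (SE) for codes 2 and 1 and 0.58 ± 0.37 and 0.38 ± 0.44 (SE) for codes 4 and 3. The 2 codes of each strain overlapped. Within sets, 192671_at was higher at code 2 than at code 1 by ratios of 1.15 and 1.12 in sets 1 and 2, and higher at code 4 than at code 3 by ratios of 1.11, 1.57 and 1.92 in sets 1, 2 and 3. For 192672_s_at the ratios were 1.19 and 1.01, and 0.858, 1.32 and 1.93. All 5 ratios of 192671_at and 4 of 5 of 192672_s_at were thus above 1. With the set as a block the code 4 minus code 3 difference was 0.58 ± 0.17 and 0.38 ± 0.20 (SE) in log2, with adjusted p of 0.46 and 0.73 in limma.

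The 2 probe sets of sip-1 were the member probe sets called in the set test, 2 of 8, beside the background of 40.3% of all tested probe sets, so a call by set was not unusual on these arrays. An unadjusted p under 0.05 was found for 6 of 8 member probe sets and 51% of all. The adjusted p of hsp-17 in the set test was 0.052, that of hsp-25 0.077, that of hsp-12.2 0.087, and that of hsp-12.3 0.098. For hsp-25 the 3 arrays of set 3 read 3164.8 to 3544.9, against 2509.9 to 3061.7 in set 2 and 2476.3 to 3297.2 in set 1. The remaining members, hsp-12.1 and hsp-43, had adjusted p of 0.33 and 0.44. Between sets 2 and 1, 4 of 8 member probe sets were called beside 33.3% of all, those of sip-1 as lower in set 2 and those of hsp-17 and hsp-12.2 as higher, by 0.37 and 0.31 on the log2 scale. Between sets 3 and 2, 3 of 8 were called beside 37% of all, those of sip-1 and that of hsp-25, which was 0.31 higher in set 3. Between sets 3 and 1 none of the 8 was called in limma beside 1.43% of all, and 2 of 8 had an unadjusted p under 0.05, beside 18.7% of all.

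Transcripts of the tissues in which sip-1 is known to be made also moved with the set. In a list of 20 oocyte and early embryo genes, 13 had a tested probe set, and the median log2 difference between sets 2 and 1 was -0.61, with 10 of 13 lower in set 2. The summed signal of the 20 genes was 6782 to 7720 in set 1, 5924 to 6987 in set 2 and 7069 to 7431 in set 3. The set test passed for 9 of the 13, beside 40.3% of all tested probe sets. The 9 included cpg-1 and cpg-2, eggshell proteoglycan genes, at -0.78 and -0.93, and skn-1, a transcription factor gene, at 0.65 in the other direction. The defining oocyte genes oma-1, oma-2 and pos-1 were below the filter on dim signals. All 7 tested sperm genes were lower in set 2, median -0.43, and so were 17 of 20 muscle genes, median -0.30, beside a median of 0.04 for all tested probe sets. The summed signal of the 18 sperm genes with a probe set was 3432 to 3799 in set 1, 2327 to 3085 in set 2 and 3347 to 4164 in set 3. That of the 20 muscle genes was 106533 to 123854, 92941 to 104406 and 105598 to 124440 in the same order. The set test passed for 4 of the 7 sperm genes and 15 of the 20 muscle genes. Among 19 tested genes of HSF-1, its regulators and cytosolic chaperones it passed for 11, with 11 lower in set 2, median -0.11. Among 13 tested genes linked to DAF-16 it passed for 7, with 6 lower in set 2, median 0.08. The part of tissue content or stage in the sip-1 result was not tested.

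Other alpha-crystallin domain genes were not called between codes. Of 4 listed, ZK1128.7 and Y55F3BR.6 had a tested probe set, with log2 differences of 0.24 and 0.18 between codes 2 and 1 and 0.13 and 0.00 between codes 4 and 3, adjusted p of 1 in limma. Both passed the set test, adjusted p = 0.0094 and 0.025, with set 2 minus set 1 at 0.48 and -0.40. The other 2 of the 4, hsp-16.20 and hsp-16.21, had a probe set below the filter on dim signals and were not tested. Of the 6 genes in the separate hsp-16 list, 2 had a probe set assigned to a single gene. These were hsp-16.2 and hsp-16.41, and both rose at codes 2 and 4.

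Among 19 tested genes of HSF-1, its regulators and cytosolic chaperones, none rose or fell between codes 1 and 2 and 1 rose from code 3 to code 4 in limma, and 2 were called in the joint test. Of all tested probe sets 0.0406% were called between codes 1 and 2, 0.0568% between codes 3 and 4 and 0.0811% in the joint test. The inducible chaperone gene hsp-70 differed by 1.68 ± 0.33 and 2.45 ± 0.33 (SE) on the log2 scale, joint adjusted p = 0.0050. The co-chaperone gene dnj-13 differed by -0.85 ± 0.15 and -0.74 ± 0.15 (SE), joint adjusted p = 0.033. The log2 difference of hsp-17 was thus smaller than that of hsp-70 in both strains and close in size to that of dnj-13, with the opposite sign. The median log2 difference of the 19 genes was 0.20 between codes 2 and 1 and 0.33 between codes 4 and 3, and that of the 7 tested members, each by its brightest probe set, was 0.01 and 0.25.

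**Figure D4:**
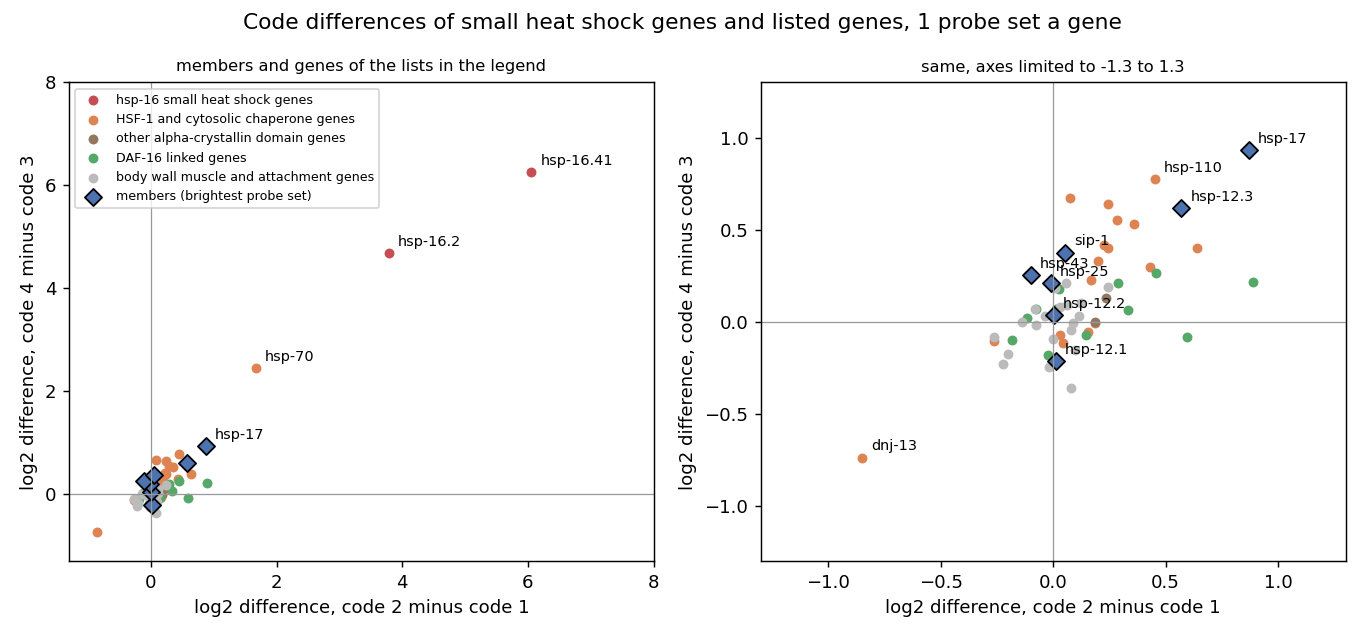
Log2 difference between codes 4 and 3 (y axis) against that between codes 2 and 1 (x axis) for the 7 tested members (diamonds) and for genes of the listed families (dots), each by its brightest single-gene probe set. The right panel limits both axes. The gene hsp-17 lies at 0.87 and 0.93, below hsp-70, hsp-16.2 and hsp-16.41, and the other members except hsp-12.3 lie within 0.4 of 0 on both axes.

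In a list of 16 genes linked to DAF-16, the factor known to act on hsp-12.6 and sip-1, 13 were tested and none was called between codes in limma. Between strains 1 was higher in the HLH strain, lea-1, whose protein belongs to the late embryogenesis abundant family, at 2.55 on the log2 scale, and 1 was lower, icl-1, a glyoxylate cycle enzyme gene, at -0.65, adjusted p = 0.00044 and 0.0039 in limma. Of all tested probe sets 2.72% were called between strains. The metallothionein gene mtl-1 was at -1.17, adjusted p = 0.077, and the superoxide dismutase gene sod-3 at -0.05, adjusted p = 0.94. The strain difference of sip-1 was 0.21 with 192671_at and 0.11 with 192672_s_at, adjusted p = 0.77 and 0.91.

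The genes whose log2 signal followed each member most closely over the 12 arrays were taken by Pearson's r, as a description, since arrays of a code or set share their level. For hsp-17 they were plin-1, a lipid droplet gene, with r = 0.89, the fatty acid desaturase gene fat-5 with r = 0.88 and F29A7.6 with r = 0.87. For sip-1 (192672_s_at) they were col-20, nssp-86 and sds-22, with r of 0.95, 0.94 and 0.94. For hsp-25 they were Y47D7A.15, pes-23 and F32B4.2, with r of 0.93, 0.92 and 0.91, and for hsp-43 spg-20, vhp-1 and somi-1, with r of 0.93, 0.88 and 0.87. For hsp-12.2 they were lev-11, the tropomyosin gene, daf-4 and ZK673.1, with r of 0.95, 0.92 and 0.90. For hsp-12.1 they were D1007.4, hog-1 and rpb-4, with r of 0.96, 0.96 and 0.94. For hsp-12.3, hum-1, mett-10 and mdl-1 each had r of 0.89, and Spearman's rho for hum-1 was 0.53, the lowest of the genes named here.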

How the data were processed

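Total RNA was made into biotinylated cRNA, per the labels' protocols. The authors deposited an intensity for each probe set and array, the MAS5 signal, made with MAS5 per the submitters' processing notes, without a version. The authors' scaling was kept. A floor of 16.7, the 10th percentile of the table, replaced lower signals before log2. Excluded were 77 control probe sets and all probe sets that exceeded the array median on fewer than 3 arrays. The 4 groups were fitted together with limma 3.58.1 (lmFit, eBayes with trend) in R 4.3.3, with 8 residual and 4.87 prior degrees of freedom. The set test used group plus set over 11 arrays, without the array titled 2_2 (2). Tests were two-sided, Benjamini-Hochberg adjusted over all tested probe sets, called under 0.05, and tested on simulated data. A 3 against 3 exact permutation test cannot go below 0.1 and was not used.

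Deviations from group means correlated in all 15 pairs of arrays with the same set number, r of 0.31 to 0.79. In the 30 pairs with different set numbers r was -0.69 to 0.53, and it was over 0.1 in 8 of them. The set number was taken as a pairing on this ground, although the ranges overlapped. Deviations within a group sum to 0, so these values of r are not independent of each other. The pairing comes from the titles. The design text calls the replicates biological. Probe sets were named from the platform annotation, 20701 of 20766 single-gene ones updated by gene ID to WBcel235. No source used here gives the genome build of the probes. The probe and protein sequences of the members were not used here. Named genes are all members, up to 4 genes a list with the smallest p, hsp-16.2 and hsp-16.41, and the 3 genes most like each member. Chosen after their values were seen were icl-1, lea-1, mtl-1, sod-3, oma-1, oma-2, pos-1, hsp-16.20 and hsp-16.21. Of several single-gene probe sets of a list gene, the brightest stood for it. The members and lists were chosen with earlier results of these data known.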

Additional observations from a re-analysis of the deposited data

How the results depend on the processing

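The alternatives were no floor, a floor of 50, no filter on dim probe sets, quantile normalization, no intensity trend, the replicate block, 2_2 (2) and 2_2 averaged into 1 array, no set 2 arrays, only the 2 groups compared, and leaving out each array in turn. With the set number as a replicate block, the count of called member probe sets went from 0 to 1 between codes 4 and 3, in the joint code test and between strains, with no other call changed. Every other alternative left the count at 0 in the 2 code comparisons, the joint test, the strain comparison and the interaction. The hsp-17 difference kept its sign in all 21 alternatives of each code comparison. It ran from 0.67 to 1.03 between codes 2 and 1 (adjusted p 0.10 to 1). Between codes 4 and 3 it ran from 0.77 to 1.03 (adjusted p 0.0091 to 1). Several alternatives cannot change these differences, such as the floors, the filter, the trend and leaving out arrays of the other strain. The sign in those was thus fixed in advance. The joint test of hsp-17 passed with the block alone, adjusted p = 0.0037, and had an adjusted p of 0.25 without the filter in limma. The fit without the set 2 arrays also left out the array titled 2_2 (2), so HLH code 2 had 1 array there. The code 2 minus code 1 difference of 0.67 came from that fit. In the set test the count was 2, and 2 to 5 when 1 array was left out, with 5 without HLH code 1 replicate 3, where hsp-12.2, hsp-12.3 and hsp-17 passed (adjusted p 0.018, 0.020 and 0.027). It was 3 after quantile normalization, in the marker strain alone and without marker code 4 replicate 1. Both sip-1 probe sets passed in all 19 alternatives, adjusted p 0.00089 to 0.040 and 0.00044 to 0.037. Over all probe sets, the strain calls numbered 335, and 1736 with the block and 180 to 313 when 1 array was left out. The joint calls went from 10 to 22 with the block and 5 without the filter, the code 4 calls from 7 to 19 with the block and 4 without the filter, and the set calls from 4944 to 3001 with the array titled 2_2 (2) kept as set 2 and 1450 in the HLH strain alone. The cause of these changes was not tested. The spread of hsp-12.3 rests on marker code 3 replicate 3, without which the SE of its code 2 minus code 1 difference went from 0.74 to 0.23. The 4 values of hsp-12.6 under the floor have no order.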
